A study of Mus musculus with 30 samples.

Results

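Olfr893, Olfr909, Olfr916 and Olfr975 are 4 odorant receptor (OR) genes of the Olfr7 cluster, a large array of OR genes on mouse chromosome 9. They were chosen by their measured counts, which spread widely between wild-type mice of mixed background. They are 4 of the 39 measured genes of the cluster and of the 564 OR genes in the deposited data. Of these 564 genes, 558 have values in all mice of mixed background. The values that chose them, the spread over the wild-type mice of mixed background and the difference between their 2 groups, are therefore given as a description. Where other mice are set against these wild-type mice, the reference holds values that chose the genes. RNA of whole olfactory mucosa was counted with NanoString probes, in which a capture probe and a fluorescent reporter probe bind 1 transcript and single molecules are counted without amplification. Every mouse was 21 days of age, and 1 lane was run per mouse with 1 μg of its RNA.

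In 18 mice the background was mixed C57BL/6J x 129SvEv. Cartridge MK29 held 6 wild-type mice (3 females, 3 males), companions of the strain ΔP (Berry) x ΔH, and 6 mice of that strain (1 female, 5 males), homozygous for both deletions and called ΔHxΔP here. They lack the H element and the P element, enhancers that act on OR clusters of other chromosomes. Cartridge MK37 held 6 wild-type mice (4 females, 2 males), companions of the strain ΔH. On cartridge MK38 were 6 wild-type mice of the strain 129SvEvTac (4 females, 2 males), whose background is labelled 129S6/SvEvTac, and 6 homozygous ΔOlfr7Δ mice (2 females, 4 males) on an inbred 129SvEv background, from which the Olfr7 cluster is deleted. All 3 deletions are of the germ line and not limited to a cell type. Summed OR counts ran from 618163 to 1013430 per lane. The lane background, taken as the mean of the 8 negative controls plus 2 of their SD, was 32.4 to 56.2 scaled counts. The markers of mature olfactory sensory neurons, Omp, Cnga2, Adcy3, Gnal and Ano2, were used to scale the lanes. Before that step their geometric mean was 38506 to 55264 counts per lane, so the labelled tissue was present in all 30.

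OR genes encode G protein-coupled receptors of the olfactory epithelium. A mature olfactory sensory neuron expresses 1 OR gene, from 1 of its alleles, and the RNA of an OR gene in whole mucosa therefore depends both on how many neurons chose the gene and on how much RNA each one holds. These cannot be told apart here. Most OR genes lie in clusters of many genes, and the Olfr7 cluster is one of the largest.

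The probes of the 4 genes are shown because each count rests on them alone. Each line gives the probe as deposited, 5′ to 3′, with capitals for its longest run of bases that also lies, on either strand, in a probe of another gene of the panel.
Olfr893 capture: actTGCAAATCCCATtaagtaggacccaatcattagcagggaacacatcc
Olfr893 reporter: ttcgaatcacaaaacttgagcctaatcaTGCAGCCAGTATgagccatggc
Olfr909 capture: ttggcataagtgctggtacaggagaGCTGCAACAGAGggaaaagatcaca
Olfr909 reporter: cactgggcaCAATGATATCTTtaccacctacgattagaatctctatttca
Olfr916 capture: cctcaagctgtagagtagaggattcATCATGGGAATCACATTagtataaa
Olfr916 reporter: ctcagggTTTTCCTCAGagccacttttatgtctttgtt
Olfr975 capture: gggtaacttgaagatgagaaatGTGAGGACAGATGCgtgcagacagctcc
Olfr975 reporter: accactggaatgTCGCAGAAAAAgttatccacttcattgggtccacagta

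The longest shared run was 10 to 14 bases in 7 of these 8 probes, beside a median of 12 bases over the 1128 OR probes. The capture probe of Olfr916 shared 17 bases with that of Olfr917, its neighbour in the cluster, and 4.26% of OR probes had a run of 17 or more. No run was shared between probes of the 4 genes themselves that was longer than those in capitals, each of which lay in a probe of 1 other gene, outside the 4. G and C made up 38% to 50% of the bases, within the 5th to 95th percentile of the panel, 38% to 54%.

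In the RefSeq annotation of the C57BL/6J assembly GRCm38.p6 the 4 genes lie in the order Olfr893, Olfr909, Olfr916, Olfr975. Olfr909 is listed there as an older name of Olfr911-ps1, a gene of 940 bp marked as protein coding in the table despite its pseudogene symbol. Between Olfr893 and Olfr909 lie 18 annotated OR genes and pseudogenes, between Olfr909 and Olfr916 lie 5, and between Olfr916 and Olfr975 lie 67. The 4 genes are thus scattered over the cluster and not adjacent. The deposited table names no genome build, so positions are not given.

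Olfr893 was counted at 182, 173, 222, 212, 245 and 676 scaled counts in wild-type mice 1 to 6 of MK29. In ΔHxΔP mice 1 to 6 it was counted at 637, 1098, 949, 684, 225 and 244. In the wild-type mice of MK37 the counts were 1358, 1354, 1560, 1418, 1358 and 1407. The 6 mice of MK37 were alike and all above the other 12, whereas on MK29 the counts of wild-type mouse 6 and of ΔHxΔP mice 1 to 4 were well above those of the other 7 mice.

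Olfr909 showed the widest range of the 4. Its scaled counts were 62.2, 68.3, 57.7, 50.0, 81.1 and 400 in wild-type mice 1 to 6 of MK29. In ΔHxΔP mice 1 to 6 they were 435, 840, 794, 455, 51.3 and 74.3, and in the mice of MK37 they were 873, 953, 920, 822, 894 and 847. The mice that were low for Olfr893 lay close to the lane background for Olfr909, with the lowest count at 1.10 times it. All 18 mice were above it.

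Olfr916 was counted at 257, 199, 281, 258, 333 and 853 scaled counts in wild-type mice 1 to 6 of MK29. The ΔHxΔP mice had 767, 1228, 1153, 691, 262 and 339, and the mice of MK37 had 1376, 1622, 1560, 1450, 1305 and 1412. Wild-type mouse 6 and ΔHxΔP mice 1 and 4 again lay together, between the low mice and the high ones.

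Olfr975 was counted at 67.8, 80.5, 84.9, 64.3, 93.5 and 279 scaled counts in wild-type mice 1 to 6 of MK29. The ΔHxΔP mice had 309, 515, 510, 315, 115 and 110, and the mice of MK37 had 321, 332, 392, 279, 282 and 243. Here ΔHxΔP mice 2 and 3, not the mice of MK37, held the highest counts. MK37 overlapped wild-type mouse 6 of MK29, which no other of the 4 genes did. The lowest of the 18 counts was 1.45 times its lane background.

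**Figure D1:**
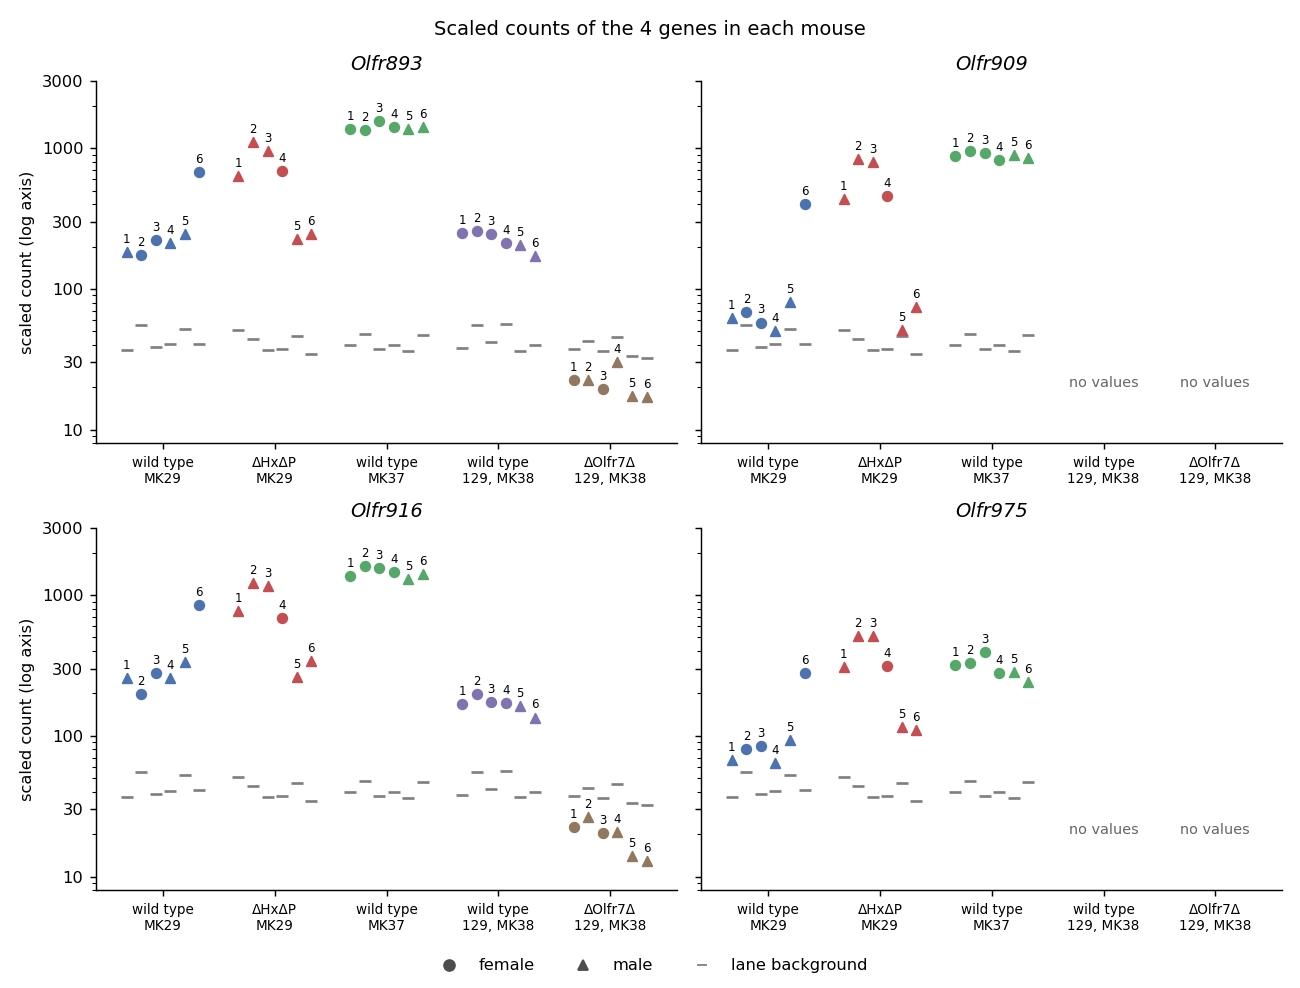
Scaled counts (log axis) of each gene in each mouse by genotype and cartridge, numbered by mouse, with circles for females, triangles for males and grey dashes for the lane background. On MK29 wild-type mouse 6 stands above wild-type mice 1 to 5 in all 4 panels, and ΔHxΔP mice 5 and 6 stand below ΔHxΔP mice 1 to 4.

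For Olfr893, Olfr909 and Olfr916 the 2 wild-type groups of mixed background did not overlap, as was true in the same direction of 14.5% of the 558 OR genes with values in both. Since this contrast chose the genes, nothing is read from it. Over the 12 wild-type mice the SD of log2 counts was 1.90 for Olfr909, 1.39 for Olfr893, 1.24 for Olfr916 and 1.02 for Olfr975. The next gene of the cluster, Olfr149, had 0.82, followed by Olfr902 with 0.78, Olfr25 with 0.51, Olfr905 with 0.42 and Olfr894 with 0.29. The median over all 558 OR genes was 0.17.

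Within MK37 the SD was 0.08 for Olfr893 and Olfr909, 0.12 for Olfr916 and 0.24 for Olfr975, beside a median over OR genes of 0.12. Within the wild-type mice of MK29 it was 0.72 to 1.11, and mouse 6, a female, held the highest count for each of the 4 genes. These counts, too, are among those that chose the genes.

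The genes were chosen by the spread of wild-type mice of mixed background and not of the 6 ΔHxΔP mice. Earlier results of these data were known when they were chosen. Among 558 OR genes ranked by their SD over these 6 mice, Olfr909 had rank 1 with 1.74, Olfr975 rank 2 with 0.99, Olfr893 rank 3 with 0.98 and Olfr916 rank 5 with 0.91, where the median was 0.18. The highest of the 6 counts was 16.4 times the lowest for Olfr909, 4.89 times for Olfr893, 4.68 times for Olfr916 and 4.67 times for Olfr975. The order of the mice was shared. For each of the 4 genes mice 2 and 3 held the 2 highest counts and mice 5 and 6 the 2 lowest, with mice 1 and 4 between. This order was looked for after the values had been seen. It held in 14 of 558 OR genes, or 2.51%, of which 7 lie in the cluster: the 4 genes, Olfr25, Olfr902 and Olfr149. The opposite order, with mice 5 and 6 highest and 2 and 3 lowest, held in 18.3% of OR genes, 8 of them in the cluster. ΔHxΔP mouse 4 is the female, and the other 5 are males. The part of sex in these differences was not tested.

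**Figure D2:**
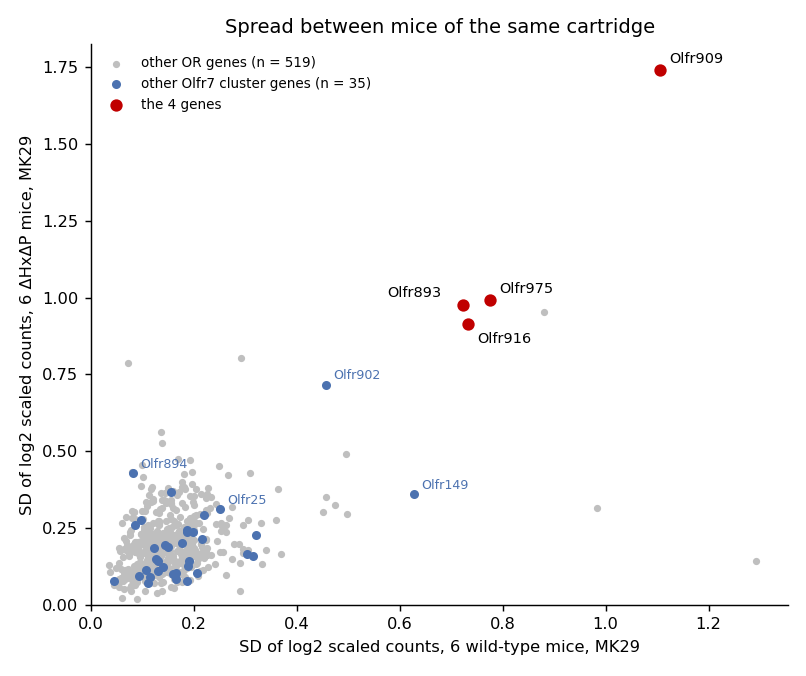
SD of log2 scaled counts over the 6 wild-type mice of MK29 (horizontal axis) and over the 6 ΔHxΔP mice of the same cartridge (vertical axis), 1 point per OR gene. The values of the horizontal axis were among those that chose the 4 genes (red), which lie apart from most others on both axes, with Olfr909 at 1.11 and 1.74, whereas most other genes of the Olfr7 cluster (blue) lie among the remaining OR genes (grey).

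Across the 18 mice of mixed background the 4 genes moved together. Pearson's r of log2 counts was 0.99 between Olfr893 and Olfr916, 0.98 between Olfr909 and either of these, and 0.91 to 0.94 between Olfr975 and the others. These values describe 18 mice that lay at separate levels and share lanes and scaling, and carry no test. For Olfr893, Olfr909 and Olfr916 the 3 most similar of 557 OR genes were the other 2 of these and Olfr902, with 0.95 for Olfr902 in each case. For Olfr975 they were Olfr902 (0.96), Olfr909 (0.94) and Olfr916 (0.91). After the mean of each of the 3 groups was taken off, the 3 most similar genes to each of the 4 were the other 3, with r from 0.96 to 0.98. Olfr902 had rank 4 for each of them, with r from 0.91 to 0.95. Olfr25 had rank 5 for Olfr893, Olfr916 and Olfr975, with 0.81 to 0.83. The wild-type mice among the 18 hold values that chose the genes.

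The ratio between 2 of the genes in the same mouse varied less than their levels. Olfr893 over Olfr916 was 0.71 to 1.04 in the 18 mice, while Olfr893 itself spanned 9.01-fold and Olfr916 8.15-fold. Olfr909 over Olfr916 ran from 0.19, in a mouse near background for Olfr909, to 0.69. Olfr975 over Olfr916 was 0.17 to 0.25 in MK37, 0.32 to 0.46 in ΔHxΔP mice and 0.25 to 0.40 in their wild-type companions. In ΔHxΔP mice every such ratio was above every one of MK37. How many other gene pairs separate these 2 groups was not counted, and the mice of MK37 hold values that chose the genes. Nothing is read from this.

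**Figure D3:**
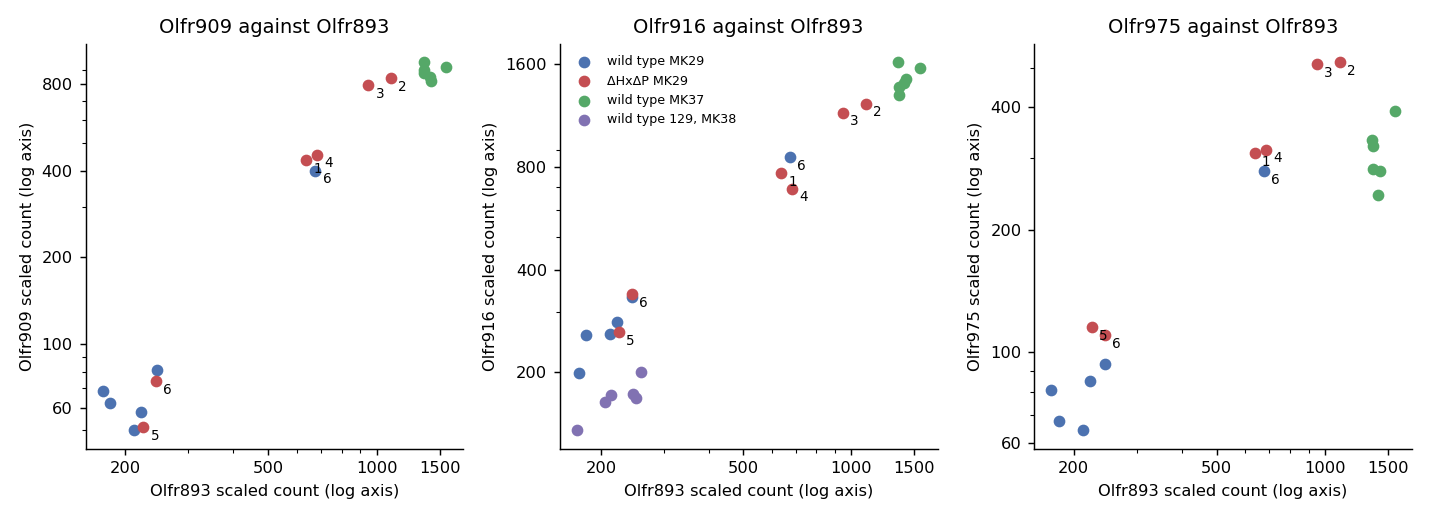
Scaled counts of Olfr909, Olfr916 and Olfr975 against those of Olfr893 in the same mouse (both axes log), coloured by group, with numbers for the ΔHxΔP mice and wild-type mouse 6 of MK29. That wild-type mouse lies beside ΔHxΔP mice 1 and 4 in each panel, and ΔHxΔP mice 5 and 6 lie among or close to the other wild-type mice of MK29.

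Other varying genes of the cluster followed the 4 in part. Olfr902, the most similar, was counted at 174, 166, 223, 211, 252 and 399 in wild-type mice 1 to 6 of MK29, at 501, 715, 736, 448, 225 and 261 in ΔHxΔP mice, and at 480 to 754 in MK37. Its probes also gave 64.2 to 74.9 scaled counts in ΔOlfr7Δ mice, above their lane backgrounds of 32.4 to 45.2. Olfr25 was counted at 606 to 694 in MK37 and 277 to 438 in the wild-type mice of the other cartridge. Among ΔHxΔP mice Olfr25 had 540 and 550 in mice 2 and 3 and 314 to 411 in the other 4. Olfr149 and Olfr905, in contrast, were not low in ΔHxΔP mice 5 and 6 compared with the wild-type mice of MK29. Olfr149 had 310 and 298 there, against 83.8 to 278 in the wild-type mice. Olfr905 had 829 and 792, against 410 to 724.

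Olfr894, the measured gene next to Olfr893, ran the other way. Its scaled counts were 437 to 512 in MK37 and 626 to 719 in the wild-type mice of the other cartridge, so that the 2 groups did not overlap, as in the same direction 5.56% of OR genes. In ΔHxΔP mice 1 to 6 they were 725, 488, 497, 601, 915 and 973, lowest in the 2 mice that were highest for the 4 genes. Over the 18 mice its r was -0.85 with Olfr893, -0.85 with Olfr909, -0.84 with Olfr916 and -0.70 with Olfr975. Olfr907, next to Olfr909, had an SD of 0.29 over the 12 wild-type mice, close to that of Olfr894. It had 714 to 1003 scaled counts in the wild-type mice of MK29, 672 to 1050 in ΔHxΔP mice and 1044 to 1203 in MK37. The 2 wild-type groups did not overlap, as in the same direction 14.5% of OR genes. The r of Olfr907 was 0.65 with Olfr909 and 0.74 with Olfr916. The other neighbours had SDs of 0.10 to 0.23. Among the 18 mice Olfr885, on the other side of Olfr893, spanned 222 to 408, and Olfr910, on the other side of Olfr909, spanned 2083 to 3268. Olfr914 and Olfr917, beside Olfr916, spanned 1193 to 1748 and 144 to 234, and Olfr974 and Olfr979, beside Olfr975, spanned 1277 to 1715 and 452 to 749. Olfr917, which shares the 17 bases with Olfr916, had r of 0.12 with it.

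**Figure D4:**
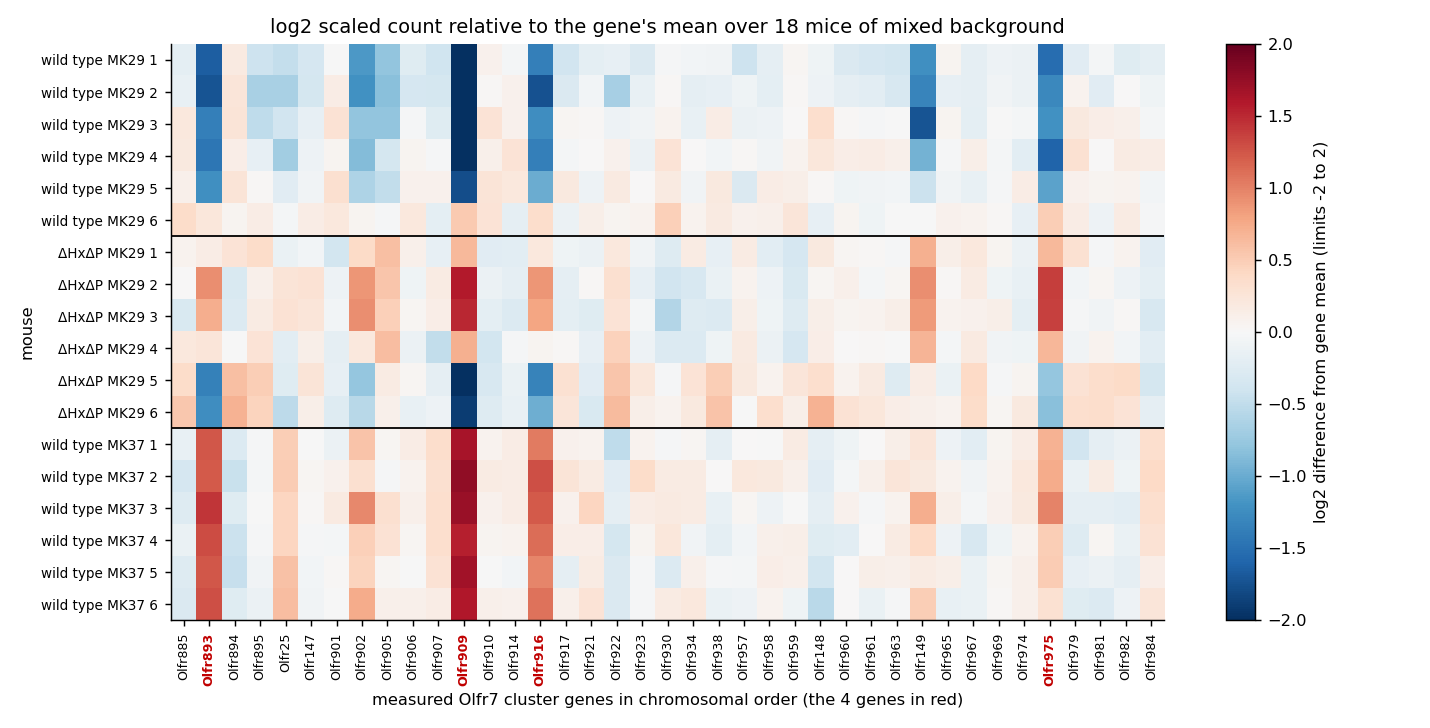
log2 scaled count of each of the 39 measured Olfr7 cluster genes (columns, in chromosomal order) relative to the gene's mean over the 18 mice of mixed background (rows), red for higher and blue for lower, with colours cut at -2 and 2. The columns of the 4 genes stand out from neighbouring columns, and Olfr894, beside Olfr893, shows the opposite colours in ΔHxΔP mice 2, 3, 5 and 6.

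The first comparison asked whether loss of the H and P elements moved the 4 genes. Against all 12 wild-type mice none of the 4 passed, while 34.2% of 558 OR genes did (limma, Benjamini-Hochberg adjusted p under 0.05). The log2 difference, ΔHxΔP minus wild type, was -0.14 ± 0.56 (SE) for Olfr893, -0.09 ± 0.51 for Olfr916, 0.03 ± 0.82 for Olfr909 and 0.61 ± 0.45 for Olfr975, with adjusted p of 0.88, 0.91, 0.98 and 0.30. None of the 4 had an unadjusted p under 0.05 either, and at these SEs this does not show that the genes did not differ. The genes were chosen for their spread over these 12 wild-type mice, and that spread widens the SEs. Not passing was therefore partly fixed by the choice, and nothing is read from it beside the share of all OR genes.

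The difference turned with the wild-type mice that were used. Both wild-type groups hold values that chose the genes, so the differences from either group alone are descriptions, with no test. From the 6 wild-type mice of the same cartridge the log2 differences of ΔHxΔP mice were all positive, 1.44 ± 0.41 (SE) for Olfr975, 1.11 ± 0.40 for Olfr893, 1.71 ± 0.67 for Olfr909 and 1.00 ± 0.38 for Olfr916. Without wild-type mouse 6 they were 1.28 to 2.15, and without ΔHxΔP mouse 2 they were 0.81 to 1.39.

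From the 6 mice of MK37 the differences were -1.38 ± 0.33 for Olfr893, -1.19 ± 0.31 for Olfr916, -1.64 ± 0.58 for Olfr909 and -0.22 ± 0.34 for Olfr975. Genotype, cartridge and the strain that the mice belong to or accompany, ΔP (Berry) x ΔH or ΔH, cannot be told apart in this comparison. No ΔHxΔP mouse reached the lowest mouse of MK37 for Olfr893 or Olfr916, as was the case in 19.5% of OR genes, and nothing is read from this. For Olfr909 mouse 2 did, with 840 against 822. The mean of ΔHxΔP mice, 639 ± 357 scaled counts for Olfr893 (SD, n = 6), was that of mice at separate levels and near the counts of mice 1 and 4 alone.

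Of the 39 measured cluster genes, 7 were higher and 7 lower in ΔHxΔP mice than in the 12 wild-type mice, none of them among the 4, and 25 did not pass. The cluster's median difference was 0.03, beside -0.05 over all OR genes, of which 10.4% were higher and 23.8% lower. Among the genes named above, Olfr905 was higher by 0.63 ± 0.17 (limma, adjusted p = 0.0072) and Olfr149 by 0.86 ± 0.32 (0.041). Both were named for their spread over these wild-type mice, and their differences turned on the group used. From the wild-type mice of MK29 alone they were 0.97 and 1.51, and from MK37 alone 0.29 and 0.20. Olfr910 was lower by -0.37 ± 0.05 (1.8e-05) and Olfr914 by -0.24 ± 0.06 (0.0051). These 2 differed by -0.42 and -0.24 from MK29 alone, and by -0.32 and -0.25 from MK37 alone.

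Olfr893 and Olfr916 also have values on MK38. The cells of Olfr909 and Olfr975 are empty there, so the level of these genes in 129 mice is not known here. In 129 wild-type mice 1 to 6, Olfr893 was counted at 250, 259, 246, 213, 206 and 172 scaled counts and Olfr916 at 168, 200, 173, 172, 163 and 135. No 129 mouse was at the level of wild-type mouse 6 of MK29. Their SD of log2 counts was 0.22 for Olfr893, rank 17 of 555 OR genes, and 0.18 for Olfr916, rank 55, beside a median of 0.11. For Olfr893 they covered the range of the 5 low wild-type mice of MK29, 173 to 245. For Olfr916 they lay at or below it, since 199 to 333 was counted there and only 1 mouse of 129 reached 199.

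Compared with all 12 wild-type mice of mixed background, the 129 mice were lower by limma for Olfr893 (log2 difference -1.42 ± 0.51 SE, adjusted p = 0.017) and for Olfr916 (-2.02 ± 0.45, 0.00049). Of 549 OR genes 37.3% were lower and 33.3% higher, so a call in this comparison is common. The spread of these 12 mice chose both genes, so both calls are a description and nothing is read from their p-values. As a description, with no test, Olfr893 differed from MK29 alone by -0.17 ± 0.23 and Olfr916 by -0.93 ± 0.23, and from MK37 alone by -2.66 ± 0.09 and -3.11 ± 0.09. For both genes every 129 mouse lay below every mouse of MK37, as in 33.9% of OR genes, and nothing is read from this. The strain and the cartridge cannot be told apart. Of the 37 cluster genes tested, 14 were higher and 9 lower in 129 mice than in the 12, with a median difference of 0.03 beside 0.00 over all genes. Olfr902 was lower by -0.80 ± 0.29 (limma, adjusted p = 0.018) and Olfr894 higher by 0.32 ± 0.12 (0.021). Both were named for their spread over the same wild-type mice. They differed from MK29 alone by -0.13 ± 0.16 and 0.06 ± 0.08, and from MK37 alone by -1.47 ± 0.10 and 0.59 ± 0.08.

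The ratio of Olfr893 to Olfr916 was 1.24 to 1.49 in 129 mice, above each of the 18 mice of mixed background, where the highest was 1.04. This ratio was examined after the values had been seen and was not tested. How many other gene pairs separate the groups in this way was not counted, so nothing is read from it. Strain and cartridge cannot be told apart here.

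The spread over mice was compared between ΔHxΔP and 129 wild-type mice. The genes were chosen by the spread of neither group, though with earlier results of these data known. The SD of log2 counts was 0.98 against 0.22 for Olfr893 and 0.91 against 0.18 for Olfr916. The mean absolute deviation from the group median was larger in ΔHxΔP mice by 0.54 for Olfr893 (exact two-sided permutation test, p = 0.084, adjusted p = 0.41) and by 0.58 for Olfr916 (p = 0.030, adjusted p = 0.29), with 6 mice in each group. Neither passed the adjustment over 549 OR genes, and 0% of genes did, though 12.9% were wider in ΔHxΔP mice at an unadjusted p under 0.05. The smallest p that 924 divisions of the mice gave was 0.0022, which leaves little room for an adjusted call. Over OR genes the median SD was 0.18 in ΔHxΔP and 0.11 in 129 mice. Genotype, strain background and cartridge cannot be told apart here.

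In ΔOlfr7Δ mice, Olfr893 was counted at 22.4, 22.5, 19.5, 30.4, 17.3 and 17.0 scaled counts and Olfr916 at 22.4, 26.6, 20.4, 20.6, 14.0 and 13.0. All of these lay under the background of their lanes, and the negative controls averaged 20.7. Olfr893 was thus at least 5.93-fold and Olfr916 at least 4.45-fold higher in 129 wild-type mice, when their means of 224 ± 33.5 and 168 ± 20.8 (SD, n = 6) were set against the mean lane background of 37.8. Both fell by limma (adjusted p = 4.5e-17 and 3.7e-15), as did 11.9% of OR genes and all 37 measured genes of the cluster. The deletion fixes this direction in advance, so the calls show only what the probes read without their genes. Counts of these 2 probe pairs in the other mice, of which the lowest were 172 for Olfr893 and 135 for Olfr916, were all above what the same probes gave where the genes are deleted. For Olfr909 and Olfr975 no such measure of probe background was used here.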

How the data were processed

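The authors deposited 1 table of raw NanoString counts with no scaling, with the probe sequences and with empty cells for some genes on a cartridge. Why those cells are empty was not examined. Here each of 30 lanes was scaled by the geometric mean of 6 positive controls and then of 5 reference genes, over all lanes together. Background was not subtracted. The members and gene lists were chosen with earlier results of these data known. The order of cluster genes is that of the study's OR table. Named are the 4 genes, the 3 most similar OR genes and the measured neighbours of each, and the 5 next cluster genes by SD. Its values are raw counts, but its preamble and empty cells kept it from being read as a plain count table here, so no count model was fitted. In R 4.3.3, limma 3.58.1 was fitted with a trend of variance on mean to log2 of the scaled count plus 1, over all OR genes with values and with no filter, and p-values were adjusted by Benjamini-Hochberg. It was tested on simulated data. Spread was compared by exact permutation. Alternatives were positive controls alone, median of ratios or TMM on OR genes, background subtraction, a pseudocount of 10, a minimum mean of 100, sex, lane number, either wild-type group, and leaving out each mouse. The RefSeq gene table held all 564 OR symbols, 5 as older names. Figures were drawn with matplotlib 3.10.9.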

Additional observations from a re-analysis of the deposited data

Results flagged for a closer look

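Within their group, some mice stood apart from the other 5 past the limit of Dixon's test for 6 counts. In the wild-type mice of MK29 it was mouse 6 for all 4 genes, with 676 scaled counts of Olfr893, 400.4 of Olfr909, 853 of Olfr916 and 279 of Olfr975. In MK37 it was mouse 3 for Olfr893, with 1560 scaled counts, where the other 5 mice had 1354 to 1418. These values are among those that chose the genes, and the 4 counts of mouse 6 share 1 lane. The rate at which chance marks a group, about 1 in 20, therefore does not apply, and the marks are a description. Over all 558 OR genes such a highest mouse was mouse 6 of these wild-type mice in 10 genes, or 1.79%, and ΔHxΔP mouse 6 in 14, or 2.51%. In each other mouse of mixed background it was 0 to 5 genes.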

How the results depend on the processing

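ΔHxΔP against all 12 wild-type mice: no call arose under another scaling, background subtraction, the pseudocount of 10 or the minimum mean of 100. With sex as a covariate the log2 difference turned to 0.13 for Olfr893 and 0.12 for Olfr916. Against MK29 alone it was 1.11 for Olfr893, 1.00 for Olfr916, 1.44 for Olfr975 and 1.71 for Olfr909. Against MK37 alone it was -1.38, -1.19 and -0.22, and -1.64 for Olfr909. Some differences from a single wild-type group had an adjusted p under 0.05 by limma. Both groups hold values that chose the genes, so nothing is read from this. Leaving out 1 mouse gave -0.34 to 0.12 for Olfr893, -0.28 to 0.52 for Olfr909, -0.28 to 0.16 for Olfr916 and 0.42 to 0.86 for Olfr975. Against MK29 alone, leaving out 1 mouse (added after the data were seen) gave 0.90 to 1.39 for Olfr893, 1.39 to 2.19 for Olfr909, 0.81 to 1.28 for Olfr916 and 1.25 to 1.75 for Olfr975. For 129 against mixed wild type Olfr893 differed by -0.17 from MK29 alone, without a call. With lane number as a replicate block in limma the differences stayed at -1.42 for Olfr893 (adjusted p = 0.041) and -2.02 for Olfr916 (0.0030). The reference is again the mice that chose the genes, so nothing is read from these p-values. Lane numbers do not pair the mice, since the correlation of deviations for the same number ran from -0.30 to 0.15. Background subtraction raised the SD of Olfr909 to 1.87 in wild-type mice of MK29 and 2.94 in ΔHxΔP mice, where some counts lie near background. It moved the fitted ΔOlfr7Δ differences to -7.47 for Olfr893 and -6.94 for Olfr916, which are no measured folds. The calls of ΔOlfr7Δ, whose direction the deletion fixes in advance, held under every alternative run. The spread test could hardly give an adjusted call under any of them. Count models were not run.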
